A study of Mus musculus with 2 samples.

Results

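Collagens and laminins were taken from the Prrc2a RIP-seq of wild-type mouse brain as the protein-coding genes whose symbol names a collagen or laminin chain, which gave 55 of the 21951 protein-coding genes of GENCODE release M21, 44 collagens and 11 laminins. The rule used the symbol alone and no measured value. Prrc2a, a protein studied as a reader of m6A, was immunoprecipitated from whole brain of wild-type C57BL/6J male mice at 4 weeks of age, and the RNA that came down with it was sequenced, in 2 replicates of 1 condition and with no other genotype, treatment or time point. The protocol pools the brains of several mice in the lysate and does not say how they were divided over the replicates, so that the spread between replicates may be technical. The deposited list of each replicate gives peak positions with a fold enrichment, and no strand, gene or read count. The depth behind each value is thus unknown. The fold enrichment comes from the peak calling and is a linear ratio of immunoprecipitate over a control that is not named. The lists hold 18129 peaks in replicate 1 and 18671 in replicate 2, of which 45 and 42 lay over exons of the 55 genes. A peak was given to a gene when at least 1 bp overlapped an exon, and it was called shared when a replicate 1 peak overlapped a replicate 2 peak by at least 1 bp.

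Collagen chains wind around each other into a triple helix, and each chain carries long runs of the triplet Gly-X-Y, in which X and Y are often proline. Fibrillar collagens bear tension in connective tissue, collagen IV forms the sheet of the basement membrane, and the other classes decorate fibrils, form networks or sit in the cell membrane. Laminins are cross-shaped trimers of an alpha, a beta and a gamma chain, which start the assembly of a basement membrane and bind integrins and dystroglycan on the cell. In brain, these proteins are known mainly from blood vessels, meninges and the border of the tissue, and part of the laminin there comes from astrocytes.

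Of the 55 genes, 7 (12.7%, 95% Wilson interval 6.30% to 24.0%) had a shared peak in their exons, beside 12.0% of all protein-coding genes (2629 of 21951). They were the collagens Col1a1, Col8a1, Col12a1 and Col25a1 and the laminin alpha chains Lama3, Lama4 and Lama5. The interval treats the genes as independent draws of equal chance, and the spread between the 2 replicates is not in it. A peak of replicate 1 lay over exons of 9 genes (16.4%), beside 16.5% of all protein-coding genes, and a peak of replicate 2 over exons of 17 genes (30.9%), beside 21.0%. The share with a shared peak was therefore near that of all genes. The replicate 2 share was above that of all genes, and it is given by exonic length below. No exonic peak in either replicate was found for 37 of the 55. Read counts were not analysed here, so that the lack of a peak may go with little RNA of the gene in the brain as much as with little of it in the immunoprecipitate. In whole tissue, moreover, fewer cells of a type and less RNA per cell cannot be told apart. With an overlap of at least 50% of both peaks, 4 genes remained (Col8a1, Col12a1, Lama3 and Lama4), and counting only pairs with a fold of at least 4 on each side, there were 2 (Col12a1 and Lama4).

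**Figure D1:**
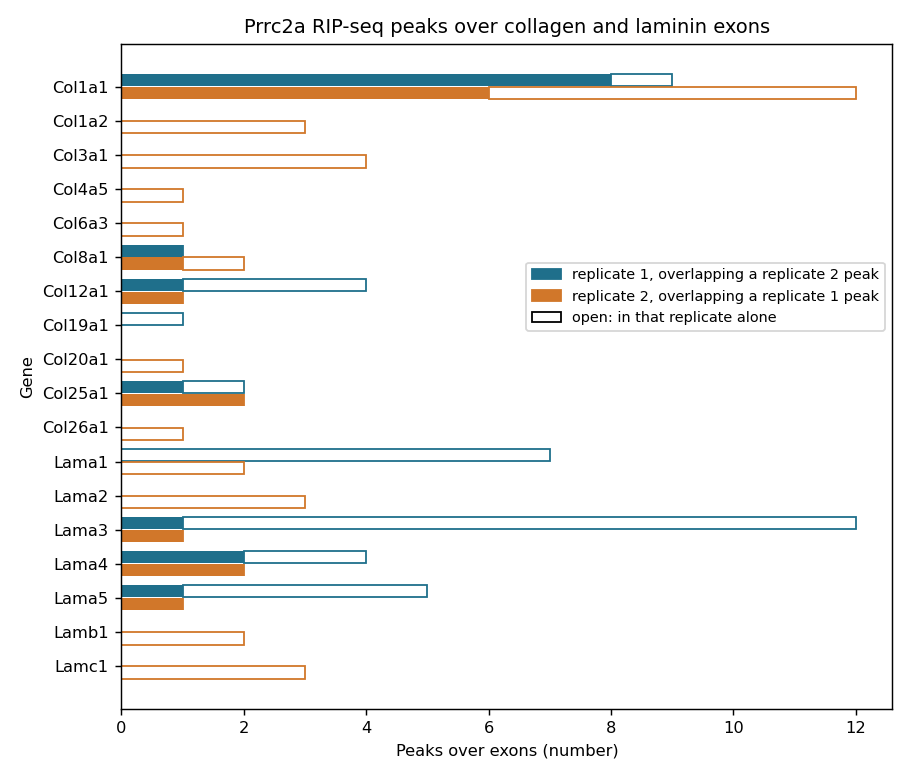
Number of peaks over exons of the 18 collagen and laminin genes that had any, with replicate 1 in blue and replicate 2 in orange. Filled bars are peaks that overlapped a peak of the other replicate and open bars are peaks found in that replicate alone. Col1a1 holds 8 of the 15 shared peaks of replicate 1, and Lama1 and Lama3 hold 7 and 12 replicate 1 peaks of which 0 and 1 were shared.

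The share of genes with a shared peak went up with exonic length, and the collagens and laminins are long. Their exons summed to a median of 7973 bases, against 3498 bases over all protein-coding genes. In the class with 5000 to under 10000 exonic bases, 2 of 36 members (5.56%) had a shared peak, beside 21.8% of all protein-coding genes of that class. In the class with at least 10000 exonic bases, 5 of 12 members (41.7%) had one, beside 43.4% of all. Among the shortest, with fewer than 5000 exonic bases, it was 0 of 7 members beside 5.09%. In the middle class the members' share was below that of all genes, and in the longest it was near it. For replicate 2 alone, 0 of 7, 9 of 36 and 8 of 12 members had an exonic peak, from the shortest class to the longest. Of all protein-coding genes of these classes, 10.1%, 38.5% and 64.5% had one. No test was made of these differences. Collagen exons are also short, with a median of 63 coding bases against 143 for laminins and 138 for all genes with a shared peak.

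**Figure D2:**
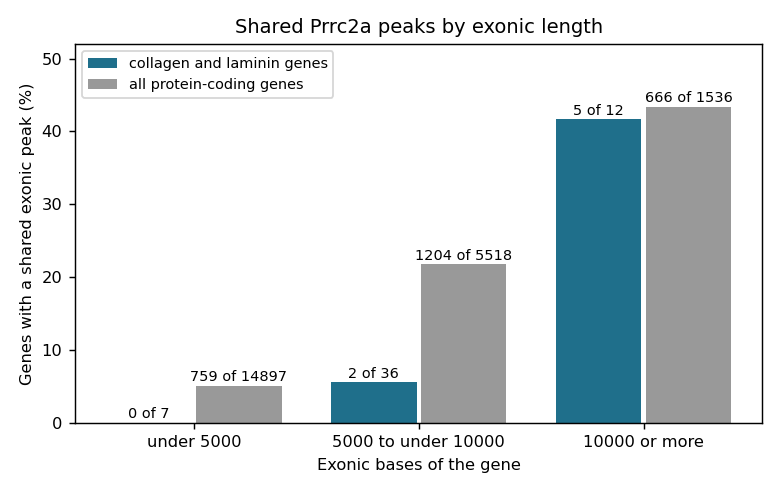
Percent of genes with a shared exonic peak in 3 classes of exonic length, for the collagen and laminin genes (blue) and for all protein-coding genes (grey), with the counts above the bars. The members lie at 5.56% against 21.8% in the middle class and at 41.7% against 43.4% in the longest.

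Among the 11 fibrillar collagens, peaks were found over Col1a1, Col1a2 and Col3a1, which form the fibrils of skin, bone and vessel walls, and over no exon of Col2a1, Col5a1, Col5a2, Col5a3, Col11a1, Col11a2, Col24a1 or Col27a1. Col1a1 encodes the alpha 1 chain of type I collagen, and spans chr11:94936224-94953042 of GRCm38, forward strand. It had 9 peaks in replicate 1 and 12 in replicate 2, and 8 of the first overlapped 6 of the second. The median number of shared peaks in a gene that had any was 2, and 157 of 2629 genes (5.97%) had at least as many as Col1a1. The fold enrichment of the 8 shared peaks ran from 2.11 to 3.98 in replicate 1, and that of the replicate 2 peaks over them from 4.52 to 6.77. All 8 were thus higher in replicate 2, and the ranges did not overlap. Along the gene, the 9 replicate 1 peaks had fold enrichments of 3.98, 3.78, 3.28, 2.88, 3.31, 3.50, 3.56, 2.11 and 2.46, the last of them not shared. The 12 replicate 2 peaks had 2.61, 4.52, 4.78, 5.48, 6.77, 2.28, 4.84, 2.26, 6.39, 5.21, 2.18 and 4.79. The replicate 2 peaks at 2.61, 4.78, 2.28, 4.84, 2.26 and 2.18 overlapped no replicate 1 peak. The median log2 ratio of replicate 1 to replicate 2 was -0.81 (SD 0.32) over these 8 peaks, against -0.27 (SD 0.53) over all 8372 shared peaks. Of those 8372, 5985 were higher in replicate 2.

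The Col1a1 peaks of the replicates differed in width. Replicate 2 peaks had a median of 609.5 bp against 349 bp in replicate 1 and were up to 2022 bp wide, and 1 of them, from 94941234 to 94943255 with a fold enrichment of 5.48, held 3 replicate 1 peaks of 3.78, 3.28 and 2.88. In all, replicate 2 peaks covered 54.8% of the exonic bases of Col1a1 and replicate 1 peaks 18.8%. Because of this difference in width, no shared Col1a1 peak reached an overlap of 50% of both peaks. Introns were inside the peaks as well: a median of 38.6% of a replicate 1 peak and 36.2% of a replicate 2 peak was exonic. No peak of either list was narrower than 200 bp, while the median collagen coding exon has 63 bases. A peak over such an exon thus reaches beyond it. The peak with the highest mean enrichment had a fold enrichment of 3.31 in replicate 1 (94943426 to 94943638, exons 23 and 24 of 51) and 6.77 in replicate 2 (94943412 to 94943939, exons 23 to 25). The latter was more enriched than 98.0% of the peaks of its list. The part of exon 24 inside both peaks is shown here as an example of the triple helix coding sequence under the Col1a1 peaks, at chr11:94943590-94943638 on the forward strand, where all 16 whole codons lie in a run of Gly-X-Y triplets, 6 of them for glycine and 3 for proline, and no GGAC occurs.

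Col1a1 exon 24, part: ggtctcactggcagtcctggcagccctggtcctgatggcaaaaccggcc

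A single Col1a1 peak of replicate 1 lay in the 3′ UTR, with a fold enrichment of 2.46, and 1396 bp separated it from the nearest replicate 2 peak. The 8 shared peaks of replicate 1 lay between codons 78 and 1277 of the 1453 of the chain.

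**Figure D3:**
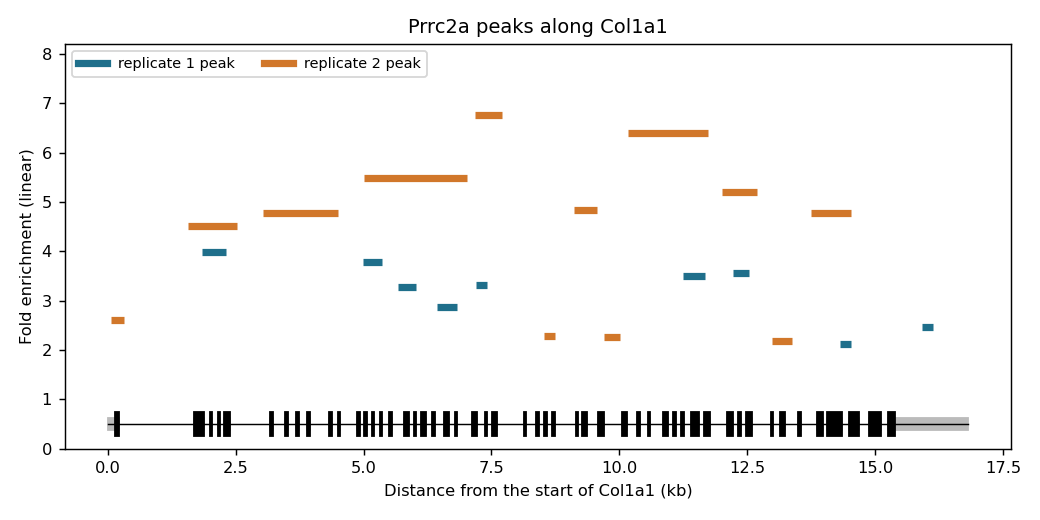
Peaks of replicate 1 (blue) and replicate 2 (orange) along Col1a1, drawn at their width (x axis, distance from the gene start in kb) and fold enrichment (y axis, linear). Black boxes at the bottom are coding exons and grey boxes UTRs. Replicate 2 peaks are wider and lie higher than the replicate 1 peaks within them, and the last peak, in the 3′ UTR, is in replicate 1 alone.

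For Col1a2, the partner chain of Col1a1 in type I collagen, replicate 2 had 3 exonic peaks with fold enrichments of 2.76, 2.92 and 4.94, and replicate 1 had 0. Col3a1, the chain of type III collagen, had 4 in replicate 2, from 2.28 to 4.18, and 0 in replicate 1. The peaks of these genes were therefore in replicate 2 alone, on chromosomes 6 and 1, and the nearest replicate 1 peak was 227283 to 231528 bp away for Col1a2 and 565873 to 599234 bp for Col3a1. One of the Col3a1 peaks also lay over an exon of Gm47302, from which it could not be told apart without strand.

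The 3 network collagens include Col8a1, a short-chain collagen of vessel walls and of the membrane below the corneal endothelium. It lies on the reverse strand of chromosome 16 and had 1 peak in replicate 1 and 2 in replicate 2, all wholly within the coding part of exon 4, the last exon. In the shared peak the fold enrichment was 2.67 in replicate 1 (57628320 to 57628645) and 3.82 in replicate 2 (57628198 to 57628771), and the whole replicate 1 peak lay inside the replicate 2 peak. The other replicate 2 peak had a fold enrichment of 4.49 and was 588 bp from the replicate 1 peak. Col8a2 and Col10a1 had no exonic peak. The Col8a1 sequence that both peaks covered is given for its density of GGAC, the letters of the main m6A consensus, which are in capitals; the central 300 bases are at chr16:57628333-57628632, read on the reverse strand.

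Col8a1 exon 4, part: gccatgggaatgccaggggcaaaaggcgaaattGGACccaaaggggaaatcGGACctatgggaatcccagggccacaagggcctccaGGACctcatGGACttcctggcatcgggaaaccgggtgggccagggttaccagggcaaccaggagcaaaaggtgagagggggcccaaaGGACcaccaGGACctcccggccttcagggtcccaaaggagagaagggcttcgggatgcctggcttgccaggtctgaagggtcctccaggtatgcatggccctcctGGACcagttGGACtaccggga

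It holds 8 GGAC, and in all 8 the first 3 letters are a GGA codon for glycine and the C opens the next codon. Of its 100 codons, 35 are for glycine and 27 for proline, and 74 lie in runs of at least 10 Gly-X-Y triplets. Of the 8 GGAC, 2 are followed by T.

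The 9 FACIT collagens, which attach to the surface of fibrils, had a shared peak in 1 gene. In Col12a1, on the reverse strand of chromosome 9, the shared peak had a fold enrichment of 4.43 in replicate 1 (79714944 to 79715343) and 5.62 in replicate 2 (79714991 to 79715311). This peak lay in no coding exon: the exonic bases belonged to the transcripts Col12a1-203 and Col12a1-205, both annotated as retained introns, and its midpoint in replicate 1 was 3688 bp from the start of the gene. With the basic transcripts of GENCODE, Col12a1 was no longer counted and 6 genes had a shared peak. The other replicate 1 peaks had fold enrichments of 5.52 in the same retained intron, 2.38 in the 5′ UTR and 3.69 over coding exons 45 and 46. Col19a1 had 1 exonic peak, in replicate 1, at 2.15 and within a transcript annotated as non-coding. It also had a shared peak in an intron, at 3.84 in replicate 1 and 2.15 in replicate 2. Col20a1 had 1 exonic peak, in replicate 2, at 2.19, which also lay over an exon of BX649560.1. For Col9a1, Col9a2, Col9a3, Col14a1, Col16a1 and Col22a1 no exonic peak was found.

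The transmembrane collagens gave 1 gene of 4. Col25a1, a neuronal collagen whose shed part is known from amyloid plaques, had a replicate 1 peak at 2.20 over its first exon (130180906 to 130181641 of chromosome 3), and this overlapped both replicate 2 peaks of the gene, at 1.44 in the 5′ UTR and at 1.99 over the start of the coding sequence. These are low values: 30.4% of replicate 1 peaks and 1.59% and 21.9% of replicate 2 peaks were less enriched. A further replicate 1 peak, at 1.53 in the 3′ UTR, was 414132 bp from the nearest replicate 2 peak. Col13a1, Col17a1 and Col23a1 had none.

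Collagen IV, the collagen of the basement membrane, had an exonic peak in 1 gene of 6, Col4a5, in replicate 2 at 3.18, and none over Col4a1, Col4a2, Col4a3, Col4a4 or Col4a6. Collagen VI, which forms beaded filaments, had 1 peak over Col6a3, in replicate 2 at 3.17, and none over Col6a1, Col6a2, Col6a4, Col6a5 or Col6a6. A peak over the first exon of Col26a1, in replicate 2 at 4.01, was the only other collagen peak. Col7a1, Col15a1, Col18a1 and Col28a1 had no exonic peak. Outside Col1a1, the other 43 collagens thus had 8 exonic peaks in replicate 1, of which 3 were shared, and 16 in replicate 2, of which 4 were shared.

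Of the 5 laminin alpha chains, 4 had an exonic peak in replicate 1 and all 5 in replicate 2. The beta chain Lamb1 and the gamma chain Lamc1 had one in replicate 2. The alpha chains are long, from 9681 to 16338 exonic bases. Of all protein-coding genes with at least 10000 exonic bases, 52.7% had a peak in replicate 1 and 64.5% in replicate 2. Lama1, Lamb1 and Lamc1 fall in the class with 5000 to under 10000, where 29.0% and 38.5% had one. Lama4, the alpha chain of vascular basement membranes, had the most enriched shared peak of all 55 genes. The peak lay over exon 1 of 38 on the forward strand of chromosome 10, and in replicate 1 also over the gene start, with a fold enrichment of 6.45 in replicate 1 (38965501 to 38966255) and 9.50 in replicate 2 (38965889 to 38966196). These values were higher than those of 97.2% of the replicate 1 peaks and 99.6% of the replicate 2 peaks. The coding part of exon 1 inside both peaks, chr10:38965955-38966149 on the forward strand, begins with the start codon and holds 2 GGAC, in capitals.

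Lama4 exon 1, coding part: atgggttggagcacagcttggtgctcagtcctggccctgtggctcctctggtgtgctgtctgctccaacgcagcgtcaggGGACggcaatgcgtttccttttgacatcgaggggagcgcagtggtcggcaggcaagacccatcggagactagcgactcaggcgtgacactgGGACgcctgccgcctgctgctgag

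In this stretch 7 of the 65 codons are for glycine, and 1 of the 2 GGAC begins with a glycine codon. A second shared peak of Lama4 lay over exon 19, with 2.67 in replicate 1 (39072657 to 39072972) and 5.77 in replicate 2 (39072596 to 39072864). Peaks over exons 23 and 28, the more enriched at 3.71, were in replicate 1 alone.

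Lama5, the alpha chain of mature epithelial and vascular basement membranes, had 5 peaks in replicate 1, at 2.33, 2.69, 2.81, 4.33 and 4.87, and 1 in replicate 2, at 3.58. The shared peak was the lowest of the 5 and lay over exon 12 of 79 on the reverse strand of chromosome 2, from 180199070 to 180199349 in replicate 1, while the replicate 2 peak, from 180198350 to 180199262, reached from exon 12 to exon 16. The bases of exon 12 that both covered, chr2:180199150-180199262 on the reverse strand, hold 2 GGAC in capitals, of which 1 begins with a glycine codon.

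Lama5 exon 12, part: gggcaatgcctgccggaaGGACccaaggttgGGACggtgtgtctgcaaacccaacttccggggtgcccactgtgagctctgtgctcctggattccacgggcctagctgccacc

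Lama1, the alpha chain of the earliest embryonic laminin, had 7 peaks in replicate 1 and 2 in replicate 2, and none overlapped. The replicate 1 values were 2.69, 2.79, 3.26, 3.77, 4.35, 4.55 and 5.34 and those of replicate 2 were 3.26 and 5.62. Each of the 9 peaks had its midpoint in a coding exon, and the gap from a replicate 1 peak to the nearest replicate 2 peak was between 11178 and 34677 bp of genome. Lama2, the alpha chain of muscle, nerve and brain vessels, had 3 peaks in replicate 2, at 3.01, 3.01 and 3.41, and 0 in replicate 1.

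Lama3, the alpha chain of epithelial laminin, had the most peaks of a laminin, with 12 in replicate 1, from 2.49 to 5.43 with a median of 3.56, and 1 in replicate 2, at 3.76. The shared peak, over exon 44 of 75, had 3.50 in replicate 1 (12519806 to 12520110 of chromosome 18) and the replicate 2 peak lay wholly within it. The annotation gives 2 protein-coding transcripts, and the shorter, Lama3-202, has 38 exons and starts at position 12504199. Of the 12 replicate 1 peaks, 11 lay after this start, as did the replicate 2 peak, and the remaining peak ended 998 bp before it. The bases after this start make up 50.8% of the exonic bases of the long transcript, in which the first peak lay over exon 38.

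**Figure D4:**
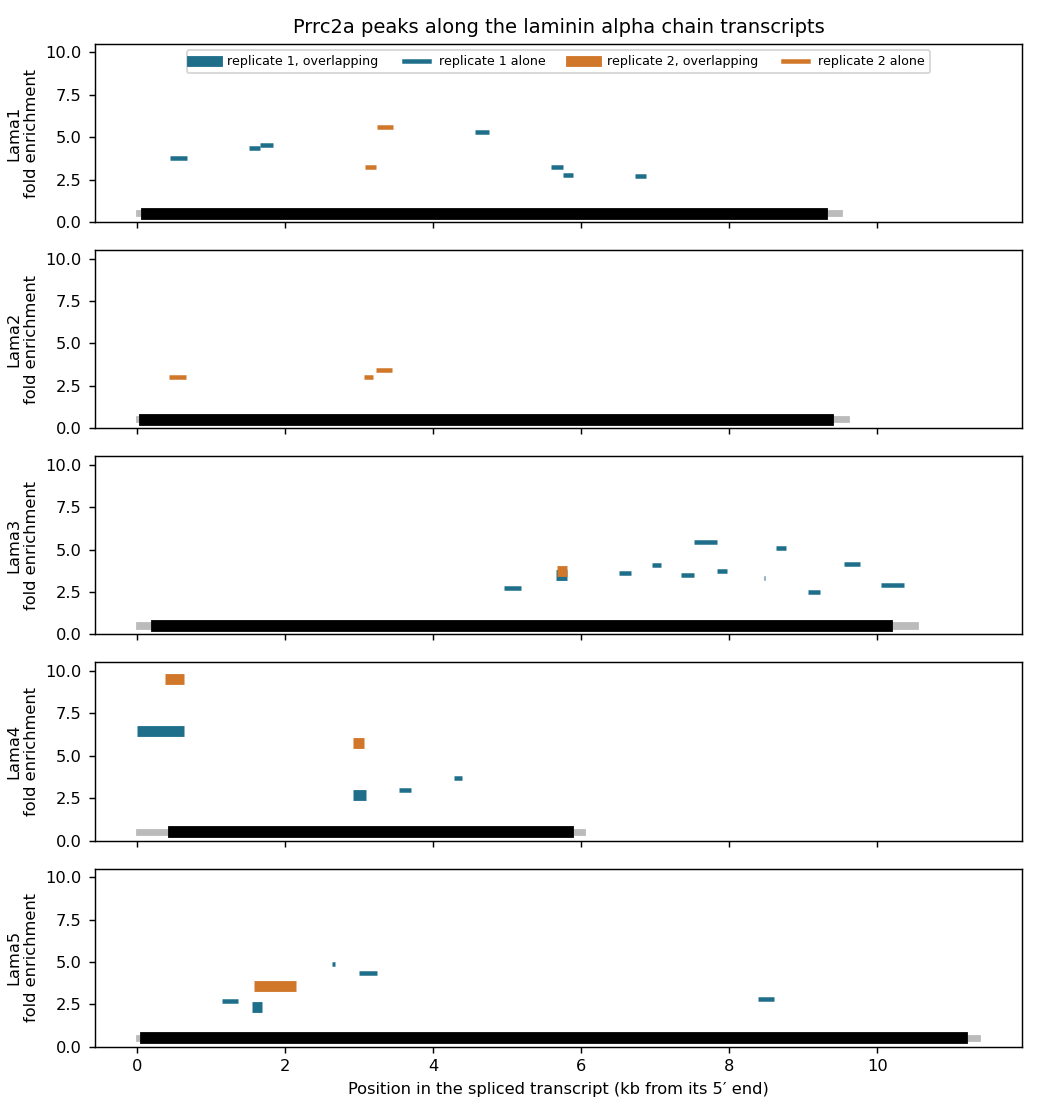
Peaks along the spliced transcripts of the 5 laminin alpha chains (x axis, kb from the 5′ end) by fold enrichment (y axis, linear), with replicate 1 in blue and replicate 2 in orange. Thick bars overlapped a peak of the other replicate, thin bars did not. Black is coding sequence and grey is UTR. The Lama3 peaks begin at exon 38 of 75, and those of Lama4 at the 5′ end are the highest, at 6.45 and 9.50.

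Of the beta and gamma chains, Lamb1 and Lamc1, which pair with most alpha chains, had peaks in replicate 2 alone. The 2 Lamb1 peaks, over exons 18 and 19 and over exon 21, had fold enrichments of 2.11 and 1.85, and the 3 Lamc1 peaks ran from 2.19 to 3.22. Lamb2 and Lamb3 had no exonic peak.

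The overlap of the replicates was described peak by peak, with no test. Of the 45 exonic peaks of replicate 1, 15 (33.3%) were shared, against 61.3% of all 11934 exonic peaks of protein-coding genes. Of the 42 of replicate 2, 14 (33.3%) were shared, against 47.9% of 16084. In replicate 1, 11 of 17 collagen peaks (64.7%) and 4 of 28 laminin peaks (14.3%) were shared, and in replicate 2 35.7% and 28.6%. Without Col1a1, which has 8 of the 15, the collagen share was 3 of 8 (37.5%) in replicate 1 and 4 of 16 (25.0%) in replicate 2, where it was below that of the laminins, and the share of all members was 19.4% and 26.7%. Fold values that at least 10 peaks of a list share to the last decimal were frequent among the laminin peaks: 23 of 28 in replicate 1 (82.1%) and 7 of 14 in replicate 2 had one, against 9.94% and 12.2% of all exonic peaks. Of the 30 member peaks in replicate 1 that were not shared, 23 (76.7%) had such a value, against 3 of the 15 that were shared. The shared peaks of Lama3 and Lama5 had such a value in both replicates. That of Col12a1 had one in replicate 2 (5.62), and 1 of Col1a1 had one in replicate 1 (3.78). The part of these tied values in the overlap was not tested. Replicate 1 also had more peaks outside annotated exons of any gene (30.3% against 11.3% in replicate 2), although introns of the 55 genes held 1 peak in replicate 1 and 2 in replicate 2, all in Col19a1 and Col20a1.

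Where the replicates overlapped, enrichment was mostly higher in replicate 2. Over the 15 shared peaks the median fold enrichment was 3.31 in replicate 1 and 5.48 in the overlapping replicate 2 peaks. Of the 15, 14 were higher in replicate 2, and the median log2 ratio of replicate 1 to replicate 2 was -0.56 (SD 0.38). Col1a1 holds 8 of these 15 peaks, and 1 of its replicate 2 peaks, at 5.48, was counted for 3 of them. The pairs behind the medians and the SD are thus not independent. Without Col1a1, the medians over 7 shared peaks were 2.67 in replicate 1 and 3.82 in replicate 2, and 6 of 7 were higher in replicate 2. Their median log2 ratio was -0.52 (SD 0.40). Over all 8372 shared peaks of the lists the medians were 2.35 and 2.91, and 5985 of them were higher in replicate 2. The exception among the shared peaks of the members was Col25a1, at 2.20 and 1.99. With 1 sample on each side, these differences have no replicate check.

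**Figure D5:**
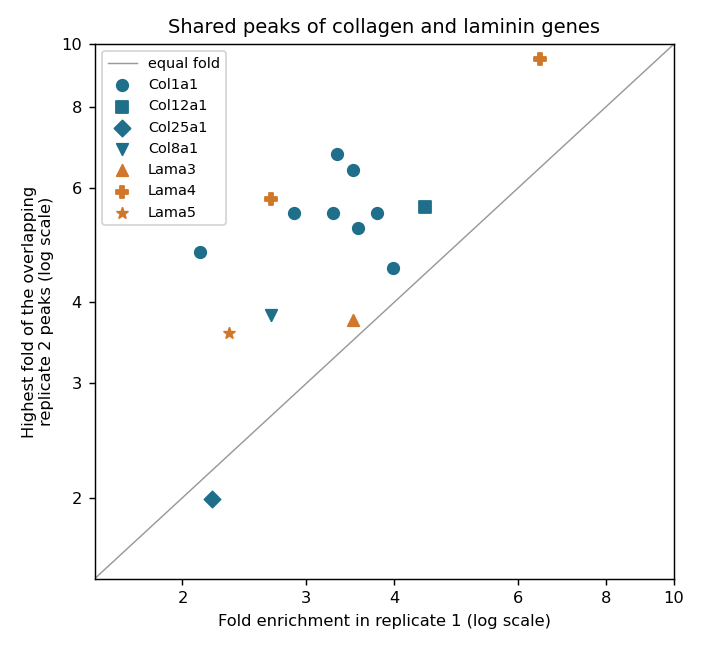
Fold enrichment of the 15 shared peaks in replicate 1 (x axis) and the highest fold of the replicate 2 peaks that overlapped them (y axis), both on a log scale, with collagens in blue and laminins in orange. All points but Col25a1 lie above the grey line of equal fold, and the Col1a1 peaks lie between 2.11 and 3.98 in replicate 1 and between 4.52 and 6.77 in replicate 2.

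By the annotation at the midpoint, 9 of the 15 shared peaks (60.0%) were in CDS, 2 in 5′ UTR, 1 in a non-coding exon, 3 in introns beside the exon that the peak overlapped, and 0 in 3′ UTR. Over the 7317 shared exonic peaks of all protein-coding genes, CDS held 50.6% and 3′ UTR 30.2%. With all exonic peaks of the members, the CDS share was 64.4% in replicate 1 and 69.0% in replicate 2, a mean of 66.7% ± 3.25 (SD, n = 2), and 3′ UTR held 2 of 45 and 0 of 42 peaks. When the region with the most bases was taken in place of the midpoint, the CDS share of the shared peaks was 20.0%, since 5 Col1a1 peaks and the Lama3 peak with their midpoint in CDS held more intronic than coding bases. A median of 44.9% of a member's shared peak was exonic, against 100% over all shared peaks. Peaks were at least 200 bp wide, which is more than the median coding exon of collagens or laminins.

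Within the 4 collagens with a shared peak, 1493 coding bases lay under these peaks, and 1106 of them (74.1%) were in uninterrupted runs of at least 10 Gly-X-Y triplets. In Col1a1 the share was 85.3% under the peaks and 73.3% over the whole coding sequence, and in Col8a1 75.2% and 51.2%. In Col25a1 the 158 coding bases under the peak held none, at codons 1 to 53, while 71.2% of the coding sequence is helix. Col12a1 had no coding base under its shared peak.

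GGAC, searched on the strand of the transcript, was present in the exonic bases of 12 of the 15 shared peaks (80.0%), against 77.9% of all shared peaks, which were longer, with a median of 376 exonic bases against 146. Per 1000 exonic bases, the members' shared peaks held 10.9 GGAC and all shared peaks 4.64. The latter include peaks in 3′ UTR, where no shared peak of the members had its midpoint. The same GGAC count was made over whole coding sequences, with or without a peak. The 44 collagens held 10.7 GGAC per 1000 coding bases and the 11 laminins 5.58, and in collagens 72.8% of them began with a glycine codon, against 27.1% in laminins. The 37 members with no exonic peak held 10.6 per 1000 coding bases, and the 7 with a shared peak 6.76. These groups differ in their mix of collagens and laminins. Under the shared peaks of Col1a1 the density was 14.9 per 1000 coding bases (15 in 1009), against 8.36 in the rest of its coding sequence. Of the 15, 14 began with a glycine codon. In Col8a1 the values were 24.5 (8 GGAC) and 11.0, and in Col25a1 12.7 (2 GGAC) under the peak and 14.7 elsewhere. Among the laminins they were 5.33 (2 GGAC) and 4.14 in Lama4, and 6.58 (1 GGAC) and 5.18 in Lama3. In Lama5 they were 21.3 (3 GGAC) and 6.54. The densities under the peaks thus rest on few GGAC.

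Genes listed as acting with collagens and laminins were read in the same way, from 4 lists and beside the 12.0% of all protein-coding genes. Median exonic length was 6656.5 bases for the other basement membrane components and 6686 for the receptors. It was 4022 for the folding genes and 4778 for the processing genes. Of all protein-coding genes with 5000 to under 10000 exonic bases 21.8% had a shared peak, and of those with fewer than 5000, 5.09%. Of 14 other basement membrane components, 2 (14.3%) had a shared peak. Hspg2, which encodes perlecan, had 14 exonic peaks in each replicate, with 6 of replicate 1 shared, and its leading shared peak had fold enrichments of 7.34 and 6.22. Hmcn1, a giant extracellular protein, had 10 peaks in replicate 1 and 1 in replicate 2, with 1 shared at 3.20 and 3.51. Of 14 genes listed as receptors, 2 (14.3%) had one: Itga9, an integrin alpha chain with a leading peak of 2.24 and 6.61, and Itga6, a laminin-binding integrin chain, at 2.25 and 2.98. Whether Itga9 binds collagen or laminin was not checked here. Dag1, the dystroglycan gene, and Ddr2, a collagen receptor kinase, had 4 and 3 peaks in replicate 2 alone, as had Itga11, an integrin chain for collagen, with 2. None of the 16 genes of collagen folding and modification had a shared peak, and P4ha3 and P3h2 had 1 each in replicate 2. Of 13 genes of collagen processing and cross-linking, 2 (15.4%) had one: Loxl1, a lysyl oxidase, at 2.89 and 3.35, and Tll1, a procollagen protease, at 3.10 and 3.01. The midpoint of the leading shared peak was in an intron for Hspg2, in CDS for Hmcn1 and in a non-coding exon for Itga6. For Itga9 it was in the 3′ UTR, and for Loxl1 and Tll1 in the 5′ UTR.

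Markers of the brain's cell types were counted to set these values beside the labelled tissue. The lists give enrichment over a control and not a level of RNA, so that they show neither the presence nor the share of a cell type. A shared exonic peak was found in 0 of 10 markers of neurons, 1 of 8 of astrocytes (Slc1a2), 1 of 11 of the oligodendrocyte lineage (Olig2), 2 of 8 of microglia (Tmem119 and Csf1r), 0 of 10 of endothelial cells, 0 of 9 of mural cells, 1 of 10 of fibroblasts and meninges (Foxc1) and 0 of 8 of the choroid plexus. These counts stand beside the 12.0% of all protein-coding genes. The median exonic length of the marker lists ran from 2110.5 bases for microglia to 5710 for neurons, and length was not taken into account. The leading shared peak had its midpoint outside the gene for Csf1r and in a non-coding exon for Slc1a2. For Olig2, Tmem119 and Foxc1 the midpoint was in CDS. A peak of replicate 1 lay over 0 of the 10 endothelial and 1 of the 9 mural markers, and a peak of replicate 2 over 1 (Vwf) and 3 (Pdgfrb, Cspg4 and Notch3, the last also in replicate 1). Cspg4 is on the oligodendrocyte lineage list as well. Pdgfra, with a peak in replicate 2, is on both that list and the list of fibroblasts and meninges. In replicate 2 the count was 1 of 10 for neurons, 1 of 8 for astrocytes and 5 of 11 for the oligodendrocyte lineage. It was 3 of 8 for microglia, 2 of 10 for fibroblasts and meninges and 1 of 8 for the choroid plexus. In replicate 1 these counts were 0, 2, 2, 2, 1 and 1, in the same order. Of all protein-coding genes, 16.5% had a peak in replicate 1 and 21.0% in replicate 2.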

How the data were processed

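RIP-seq peaks of Prrc2a were measured in whole brain, in 2 replicates of 1 condition, named by the replicate numbers of the sample titles. Reads were trimmed and aligned to mm10 by the authors, who kept unique reads of mapping quality 20 or more, and then called peaks in each replicate with MACS2 at an FDR below 0.05; the submitters' processing notes give TopHat2 2.0.9 and MACS2 2.0.10, while the methods give other versions. The deposited values are peak positions and a fold enrichment, a linear ratio over a control that is not named. Depth per sample is not given in the sources used here, so no precision can be derived from it. Overlaps, regions and motifs were computed with Python 3.11.15, pandas 2.3.3 and pysam 0.24.0 on GENCODE M21 and GRCm38 (285 of 285 member transcripts matched the genome), intervals of shares with statsmodels 0.14.6, and figures with matplotlib 3.10.9. Exon and codon numbers are those of the protein-coding transcript with the longest CDS. The functions for peak overlap, region at a position, triplet runs and motif counts were run on simulated data with planted answers. The other functions were not. With 1 condition no groups were compared and no test was run. Named were all members with a peak, with the values of every peak for the genes with the highest or most shared peaks, those without one by name only (not all are reported here), and in the other lists the genes with a shared peak, plus Dag1, Ddr2, Itga11, P4ha3, P3h2 and the cell type markers, which were named after their values were seen. The members and lists were chosen with earlier results of these data known. Alternatives changed the overlap, the fold threshold, the replicate, the annotation, the region rule, the motif and the triplet run; leaving out Col1a1 was added after the data were seen.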

Additional observations from a re-analysis of the deposited data

How the results depend on the processing

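With an overlap of at least 50% of both peaks, 4 genes and 4 shared peaks remained, the CDS share was 75.0%, and the receptor and the processing list had 1 gene each. Counting only pairs with a fold of at least 4 on each side, 2 genes and 2 peaks remained, the CDS share was 0%, and the lists had 1 basement membrane component, 0 receptors and 0 processing genes. With 1 replicate left out, so that all exonic peaks of the other counted, the genes were 9 to 17 and the peaks 42 to 45, the CDS share was 64.4% to 69.0%, the GGAC share 66.7% to 85.7%, the triple helix share 67.4% to 72.3%, and the median fold enrichment 3.50 in replicate 1 and 3.46 in replicate 2; the receptors were 2 to 5, the folding genes 0 to 2, the processing genes 3 to 4 and the basement membrane components 2 to 3. The CDS share was 20.0% by the most bases and 64.3% with basic transcripts. The GGAC share was 53.3% within 50 bp of the midpoint and 26.7% for GGACT, and the triple helix share 78.3% with runs of at least 5 triplets and 52.7% with at least 20. Without Col1a1, 7 shared peaks remained. Of 56 values, some of them given here, 28 stayed within 1.5 times a count or within the SD between replicates of a share or median. Why the values changed was not tested beyond the smaller number of peaks that a stricter rule leaves. No paired analysis was possible because there was 1 condition. With 7 genes and 15 peaks every share rests on few items, 8 of them in 1 gene, and depth limits what the absence of a peak can mean.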
